A study of Mus musculus with 4 samples.

Results

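The genes described here are the matrix metalloproteases (Mmp), the secreted Adamts proteases and the tissue inhibitors of metalloproteases (Timp). They were chosen by gene family name alone. Of 46 such genes looked for, 43 had a probe on the array, and these genes carried 72 of the 41174 probes and 43 of the 27597 gene names measured. The other 3, Mmp1b, Mmp27 and Adamts17, were not analysed here.

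Wnt3A samples were OP9 cells, a mouse stromal cell line, that received the retroviral vector LZRS-IRES-GFP with the Wnt3A gene in it (2 arrays). Control samples were OP9 cells that received the same vector without that gene (2 arrays), so both groups carry the vector. The RNA was amplified by PCR and hybridised to 1-colour Agilent arrays, and the comparison asks what the presence of the Wnt3A gene did to the stromal cells. No label tells if the replicates of a group were grown separately, and p-values below cover only how far these samples vary among themselves, which may be technical variation.

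Matrix metalloproteases are zinc enzymes that are made as inactive precursors and cut collagens, gelatins and other proteins outside the cell. The related Adamts enzymes carry thrombospondin repeats and cut proteoglycans such as aggrecan and versican, remove the end pieces of procollagens, or cut single proteins such as von Willebrand factor. Timps bind the active site of these enzymes and block it, so a stromal cell's matrix turnover depends on the levels of both sides, and many Mmp genes are known targets of AP-1, and some of the Wnt-regulated TCF/LEF factors.

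All levels below are the authors' deposited intensities, on a linear scale on which the median spot of each array is 1, while differences, folds and overlap of the groups were taken after each array was scaled by its 75th percentile. Between 80.7% and 83.7% of spots lay above the detection floor estimated for each array, and the floors were 0.0533 and 0.0729 in the Wnt3A arrays and 0.0702 and 0.0631 in the Control arrays. All 10 stromal markers were above the floor on all 4 arrays, with summed intensities of 1877 and 2085 in Wnt3A arrays and 1217 and 1802 in Control arrays. These sums hide a split. Col1a1, Col1a2, Col3a1 and Sparc were higher in both Wnt3A arrays than in both Control arrays. Pdgfra (log2 difference -2.25), Vcam1 (-1.61), Cxcl12 (-1.44) and S100a4 (-1.22) were lower in the same way, and Pdgfrb and Thy1 overlapped. None of the stromal markers had an adjusted p under 0.05 in limma. Being above the floor did not set the stromal markers apart. All 10 macrophage, 7 of 8 neutrophil, 4 of 6 endothelial and 5 of 5 epithelial markers were also above it on all 4 arrays. The 10 macrophage markers summed to 15.2 and 11.6 in Wnt3A arrays and to 15.1 and 11.8 in Control arrays. The sums of neutrophil, endothelial and epithelial markers lay between 7.81 and 11.0 in all 4 arrays, and the endothelial receptors Kdr and Tek were above the floor on no array. The single Wnt3a probe read 0.0112 and 0.123 in Wnt3A arrays and 0.0151 and 0.0134 in Control arrays, so that 1 array of 4, Wnt3A replicate 2, exceeded its floor. Whether the vector's insert covers the probe's position is not given in the labels. One scanner file per sample was also deposited, and its values do not match the table's column of the same sample well: the rank correlation over all spots was 0.684 and 0.746 for the Wnt3A columns and 0.637 and 0.826 for the Control columns, and all 4 columns were closest to the file of Control replicate 2. Within the table, 245 probes spotted more than once agreed well, with a log2 variance of 0.0555 to 0.0670 within a probe and 13.0 to 14.1 between probes. Which arrays the table's columns came from cannot be settled here, and each result below therefore stands for the table's columns as labelled.

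The probes that carry the main differences are shown by their first 30 of 60 bases, 5′ to 3′, all in lower case, with the positions of the whole probe on mouse build mm8, taken from the array annotation. The strand was read from the order of the annotated coordinates, which gave the RefSeq strand for 47 of 47 member probes with one. What part of the transcript lies at these positions was not looked up, since no genome of this build was used.
Timp3 probe, chr10:85778750-85778809, plus strand: atagtgacttttggggatagatctgtctgg
Probe named Syn3, chr10:85778008-85778067, minus strand: tacagtaagtgaacaggtgaaataaacaaa
Adamts9 probe 1, chr6:92738561-92738620, minus strand: tcagcatactcagagaacgacaggagatcg
Adamts9 probe 2, chr6:92758766-92758825, minus strand: ttgacacctaagaaaattctcatagttgca
Adamts9 probe 3, chr6:92891858-92891917, minus strand: tgcagattcttcctatgtacactgctttct
Mmp14 probe 1, chr14:53394143-53394202, plus strand: ggacagcgagtaccctaaaaacatcaaagt
Mmp14 probe 2, chr14:53395337-53395396, plus strand: aaaggaatcttaagagtgtacatttggagg

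Of the 43 genes, 37 entered the test, and 1 of these 37 rose in Wnt3A cells: Adamts9, a protease that cuts versican and aggrecan. Adamts9 was 68.0-fold higher on its brightest probe, and its other probes, given below, did not pass. None fell (limma, adjusted p under 0.05 over all 33709 kept probes). Over all 22859 genes tested, 0.402% rose and 0.241% fell by the same rule (over all kept probes, 0.424% and 0.255%), and with 37 genes tested 1 call is a small count to set against such a share. At an unadjusted p under 0.05, 5 of the 37 genes (13.5%) were higher, against 6.31% of all genes (6.95% of all probes), and 1 (2.70%) was lower, against 6.34% of all genes (6.54% of all probes). The 5 were Adamts9, Timp3, Mmp14, Mmp2 and Mmp11, and the 1 was Mmp15. On the scaled values, both Wnt3A arrays lay above both Control arrays in 10 of the 37 genes (27.0%), against 21.5% of all genes (22.2% of all probes). These 10 were Timp3, Mmp2, Mmp7, Mmp11, Mmp14, Mmp23, Mmp25, Adamts2, Adamts4 and Adamts9. In 4 genes (10.8%) both lay below, against 23.7% of all genes (22.9% of all probes). These 4 were Mmp13, Mmp15, Adamts8 and Adamts16.

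The difference between the groups, Wnt3A minus Control on the log2 scale, had a median of -0.01 over the 37 genes and of -0.01 over all genes tested. Of the 37, 18 were positive and 19 negative, and 31 lay within 1 of 0. The quartiles were -0.24 and 0.62 among the members and -0.42 and 0.39 among all genes. A difference below the 5th percentile of all genes (-1.495) was found for 1 member, Mmp15, and above the 95th (1.604) for 3 members, Adamts9, Timp3 and Mmp11. The other 6 genes were not above the floor on both arrays of either group and were not tested, namely Mmp10, Mmp12, Mmp16, Mmp20, Adamts6 and Adamts15. Mmp12 and Mmp20 were above the floor on no array.

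**Figure D1:**
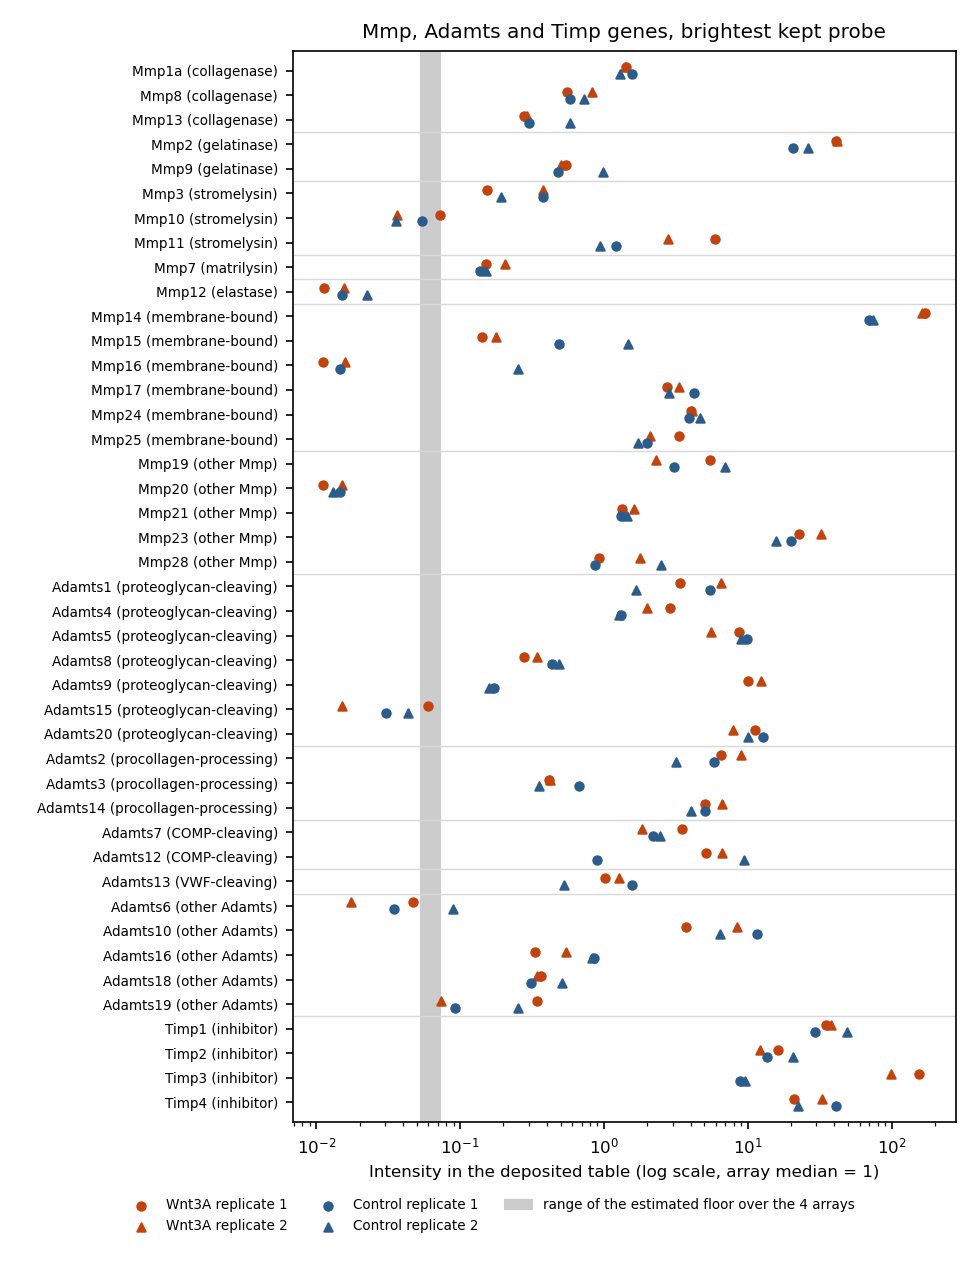
Intensity (log axis, median spot of an array = 1) of 1 probe for each of the 43 Mmp, Adamts and Timp genes on the array, 1 point per array. The probe is the brightest kept one, or the brightest one for genes that were not tested. Wnt3A and Control are in separate colours and genes are grouped by role. The 2 colours lie far apart for Adamts9 and Timp3 and lie close together or are mixed for most other genes.

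**Figure D2:**
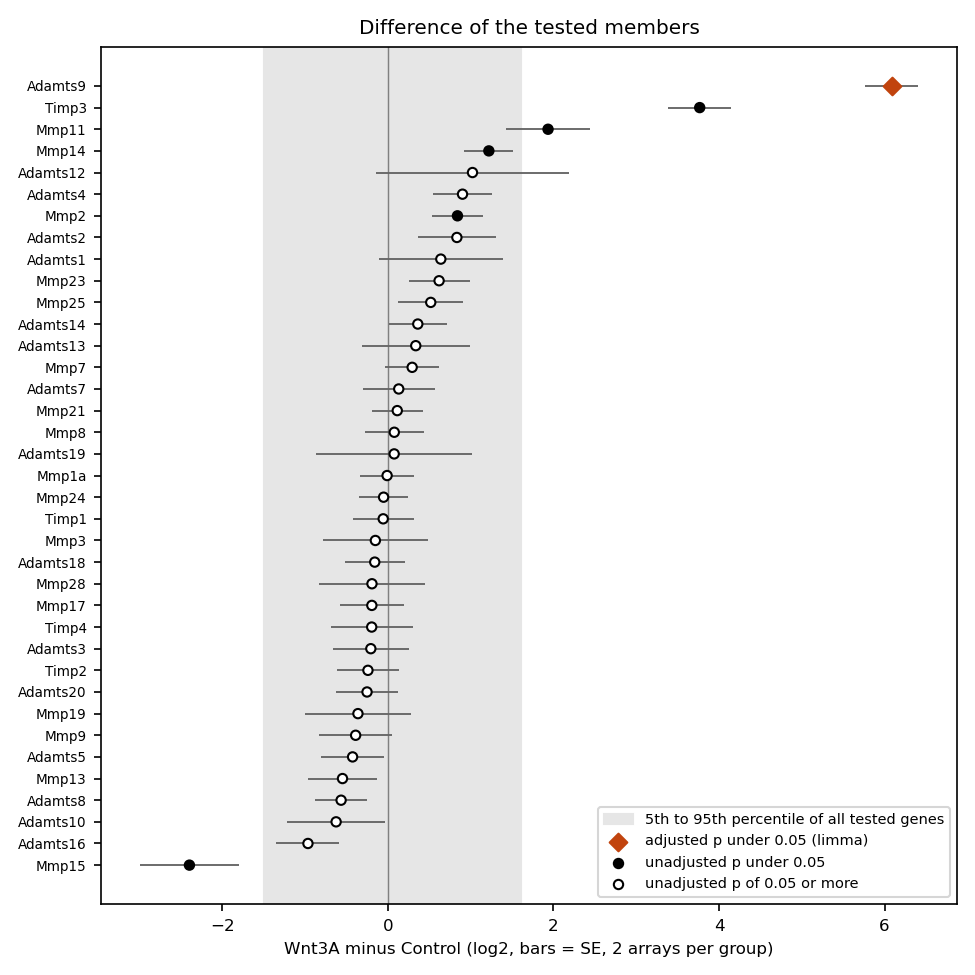
Difference between the groups (log2, Wnt3A minus Control) for the 37 tested genes with its standard error from limma, 2 arrays per group. Adamts9 lies at 6.09 and Timp3 at 3.77, Mmp15 at -2.40, and 31 of 37 genes lie within 1 of 0.

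Among the inhibitors, Timp3 stood apart from the other 3. Timp3, which binds to the extracellular matrix and blocks Adamts4, Adamts5 and Adam17 as well as Mmps, read 156 and 98.9 in Wnt3A arrays, against 8.80 and 9.59 in Control arrays. The groups were far apart, with each Wnt3A value above each Control value. The mean log2 difference was 3.77 (SE 0.38, 95% interval 2.75 to 4.79, n = 2 per group), a 13.6-fold higher intensity in Wnt3A arrays. The adjusted p was 0.0532 in limma, so Timp3 did not pass the threshold, and over the other ways of processing the table it ran between 0.0177 and 0.200, passing in 3 of 12. In the scanner files the same comparison had the opposite sign, at -1.15.

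The Timp3 gene lies within an intron of the synapsin gene Syn3 and runs against it, an arrangement that Timp1 and Timp4 share with other synapsin genes. A probe of the opposite strand, named Syn3 in the array annotation, lies 683 bases from the Timp3 probe, and both sequences are given above. It read 228 and 144 in Wnt3A arrays, against 18.9 and 19.2 in Control arrays, a difference of 3.26 (SE 0.38, adjusted p 0.0702 in limma). As with Timp3, each Wnt3A value lay above each Control value. The 2 other Syn3 probes that were tested lie 284 kb or more away, and both differed by 0.01 between the groups. One of them read 2.36 and 2.10 in Wnt3A arrays, against 2.35 and 2.10 in Control arrays.

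Timp1, a broad inhibitor of secreted Mmps, read 34.8 and 37.6 in Wnt3A arrays, against 29.2 and 49.3 in Control arrays, and the Control values enclose the Wnt3A values. The difference was -0.06 (95% interval -1.06 to 0.94), and a second Timp1 probe gave 0.04. Timp2, which also helps Mmp14 to activate Mmp2, read 16.2 and 12.2 in Wnt3A arrays, against 13.6 and 20.6 in Control arrays (difference -0.24, 95% interval -1.24 to 0.76). Timp4 read 21.1 and 32.9 in Wnt3A arrays, against 41.4 and 22.3 in Control arrays (difference -0.19, 95% interval -1.54 to 1.15). Neither Timp2 nor Timp4 had groups that were apart, and the intervals still leave room for changes of 2-fold in either direction for Timp4 and in the lower direction for Timp1 and Timp2.

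The membrane-bound Mmps sit at the cell surface. Mmp14, a collagenase of the cell surface and the activator of Mmp2, read 172 and 162 in Wnt3A arrays, against 69.8 and 74.4 in Control arrays on its first probe. Its second probe read 109 and 110 in Wnt3A arrays, against 38.6 and 53.7 in Control arrays. On both probes all Wnt3A values lay above all Control values, and the folds were alike, 2.33 and 2.43 (log2 differences 1.22, SE 0.30, and 1.28, SE 0.32). The adjusted p in limma was 0.219 and 0.227, so neither probe passed, although the gene passed at 0.0329 when the variances were moderated with a trend and robustly. In the scanner files the difference was -1.03.

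Mmp15, another membrane-bound enzyme, was the member with the largest negative difference. It read 0.141 and 0.178 in Wnt3A arrays, against 0.484 and 1.46 in Control arrays, with no overlap. The difference was -2.40 (SE 0.60), 5.27-fold lower in Wnt3A arrays, at an adjusted p of 0.224 in limma. The 2 Control values were 3.02-fold apart. A probe of an unnamed transcript on the same strand lies 897 bases away. It read 0.0452 and 0.621 in Wnt3A arrays, against 1.24 and 0.266 in Control arrays. Its groups overlapped (difference -1.77, adjusted p 0.701 in limma). Mmp15 was not among the members tested in the scanner files. Mmp25, which is held at the membrane by a lipid anchor, read 3.30 and 2.08 in Wnt3A arrays, against 1.98 and 1.72 in Control arrays (difference 0.52, adjusted p 0.658). Mmp17 and Mmp24 had overlapping groups and differences of -0.19 and -0.05.

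The gelatinases Mmp2 and Mmp9 cut denatured collagen and the type IV collagen of basement membranes. Mmp2 read 40.7 and 41.5 in Wnt3A arrays, against 20.5 and 26.1 in Control arrays, and the groups did not overlap. The difference was 0.84 (SE 0.31, 95% interval 0.01 to 1.67), 1.79-fold higher, at an adjusted p of 0.366 in limma. A probe of an unnamed transcript on the opposite strand, 290 bases away, read 65.9 and 64.7 in Wnt3A arrays, against 35.4 and 45.0 in Control arrays, a difference of 0.72 (adjusted p 0.428). Mmp9 read 0.546 and 0.501 in Wnt3A arrays, against 0.481 and 0.991 in Control arrays, and its groups overlapped.

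Mmp11, a stromelysin by name that acts poorly on matrix proteins and is known from stromal cells around tumours, read 5.89 and 2.78 in Wnt3A arrays, against 1.21 and 0.937 in Control arrays. The groups did not overlap, and the difference was 1.94 (SE 0.51), 3.82-fold higher. Its adjusted p was 0.244 in limma. The stromelysin Mmp3 read 0.153 and 0.378 in Wnt3A arrays, against 0.375 and 0.193 in Control arrays, with no separation.

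Mmp3 belongs to a cluster of neighbouring Mmp genes on chromosome 9 that holds the secreted collagenases, stromelysins, the matrilysin Mmp7, the elastase Mmp12 and the enamel protease Mmp20. The probes of the 8 cluster genes with a probe span 415 kb (mm8 chr9:7282762-7697370). Of these 8 genes, 5 were tested, 0 passed and 0 had an unadjusted p under 0.05. The differences of the 5 ran between -0.55 and 0.29 with a median of -0.01. The collagenase Mmp1a read 1.41 and 1.40 in Wnt3A arrays, against 1.57 and 1.30 in Control arrays, a difference of -0.01 (95% interval -0.88 to 0.86). A second Mmp1a probe read 0.0702 and 0.0802 in Wnt3A arrays, against 0.0438 and 0.0279 in Control arrays, where it was below the floor on both. Set against that floor it was at least 1.14-fold higher in Wnt3A arrays, and with a floor 2 times as high no such bound remained. The adjusted p in limma, 0.356, is for the values as read and not for this bound.

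The collagenase Mmp13 read 0.279 and 0.290 in Wnt3A arrays, against 0.302 and 0.583 in Control arrays. Its groups did not overlap (difference -0.55, SE 0.41, adjusted p 0.655 in limma). Mmp7 read 0.152 and 0.206 in Wnt3A arrays, against 0.138 and 0.153 in Control arrays, and the groups were apart only after scaling by the 75th percentile (difference 0.29, adjusted p 0.773). The neutrophil collagenase Mmp8 overlapped between the groups, at a difference of 0.08.

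The cluster genes were alike in a feature of their promoters. In the 250 bases before the start of each gene (RefSeq, GRCm38.p6), the AP-1 letters TGANTCA, which read the same on the other strand except for the middle base, were found in 7 of the 32 promoters of the 29 members with an entry, against 6.75% of 32851 promoters in the whole table. All 7 belong to cluster genes (7 of 8), and 0 of the 21 other members with a promoter held the letters. The windows are printed because they show where this shared motif lies. The motif is in capitals and all windows are on the plus strand. Mmp12 is given for the second of its listed starts and Mmp7 for the first. The other listed start of each held no AP-1 letters.
Mmp13, chr9:7272469-7272495: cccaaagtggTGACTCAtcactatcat
Mmp12, chr9:7347320-7347346: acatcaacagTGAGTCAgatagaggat
Mmp3, chr9:7445766-7445792: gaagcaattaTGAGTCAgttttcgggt
Mmp1a, chr9:7464058-7464084: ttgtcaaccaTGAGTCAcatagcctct
Mmp10, chr9:7502269-7502295: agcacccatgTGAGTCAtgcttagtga
Mmp20, chr9:7628126-7628152: atttgagacaTGAATCAtcacttacag
Mmp7, chr9:7692017-7692043: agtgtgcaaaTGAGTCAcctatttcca

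Between the motif and the start of the gene lie 28 bases in Mmp13, 37 in Mmp12, 39 in Mmp3, 56 in Mmp10 and Mmp7, 66 in Mmp1a and 88 in Mmp20. The TCF/LEF letters CTTTGA or CTTTGT, on either strand, were in 10 of the 32 promoters, against 27.6% of all promoters. The 10 genes were Adamts1, Adamts13, Mmp1a, Mmp7, Mmp8, Mmp10, Mmp12, Mmp20, Mmp21 and Timp1. Of these, Mmp10, Mmp12 and Mmp20 were not tested, and none of the others passed. The promoter windows of Adamts9, Timp3, Mmp14, Mmp11 and Mmp15 held neither motif, and Mmp2 had no promoter entry to read. A match of letters is a description of the sequence and not a site of binding.

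None of the remaining Mmps passed the test. Mmp23, an enzyme made as a membrane protein and released by cleavage, read 22.8 and 32.2 in Wnt3A arrays, against 20.1 and 15.8 in Control arrays (difference 0.62, adjusted p 0.568), and its groups did not overlap. Mmp19, Mmp21 and Mmp28 had overlapping groups, with differences of -0.36, 0.11 and -0.19.

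Among the Adamts enzymes that cut proteoglycans, Adamts9 was the 1 that rose. Its probe 1 read 9.96 and 12.4 in Wnt3A arrays, against 0.171 and 0.159 in Control arrays. The Control values were above the floor but low, and the 2 arrays of each group lay close together. The difference was 6.09 (SE 0.32, 95% interval 5.23 to 6.95), 68.0-fold higher in Wnt3A arrays, with an adjusted p of 0.0254 in limma. Leaving out each array in turn, the difference stayed between 5.94 and 6.23, but Adamts9 did not pass in these fits, which leave 1 array in a group. In the scanner files the difference was 0.45 with the processed signal and -0.046 with another background correction (normexp).

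Neither of the other Adamts9 probes passed the test. Probe 2, 20205 bases from probe 1, read 0.154 and 0.461 in Wnt3A arrays, against 0.0150 and 0.0139 in Control arrays, below the floor. Set against that floor it was at least 4.03-fold higher in Wnt3A arrays (at least 2.01-fold with a floor 2 times as high). The adjusted p in limma, 0.0991, is for the values as read and not for this bound. Probe 3, 153297 bases from probe 1 and nearer to the start of the gene, read 0.608 and 0.743 in Wnt3A arrays, against 0.487 and 0.497 in Control arrays. It differed by 0.46 (adjusted p 0.612), and its groups did not overlap. All 3 probes were thus higher in both Wnt3A arrays than in both Control arrays, by log2 differences of 6.09 on probe 1 and 0.46 on probe 3 and by a bound only on probe 2.

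Between Adamts9 probes 2 and 3 the array holds 4 probes of other transcripts. One on the strand of Adamts9, for a transcript without a gene symbol (mm8 chr6:92852913-92853221), read 5.79 and 16.5 in Wnt3A arrays, against 1.24 and 1.45 in Control arrays, a difference of 2.87 (adjusted p 0.167). On the opposite strand, a probe of A730049H05Rik read 0.768 and 0.543 in Wnt3A arrays, against 0.0557 and 0.0934 in Control arrays, a difference of 3.17 (adjusted p 0.0807 in limma). Its value in Control replicate 1 was below that array's floor of 0.0702, so the size of this difference is uncertain. A second probe of A730049H05Rik had overlapping groups (0.90), and a probe of a further transcript without a symbol differed by 2.26 (adjusted p 0.374 in limma). In 3 of these 4 probes both Wnt3A arrays lay above both Control arrays, as in 22.2% of all probes, and none passed the test.

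**Figure D3:**
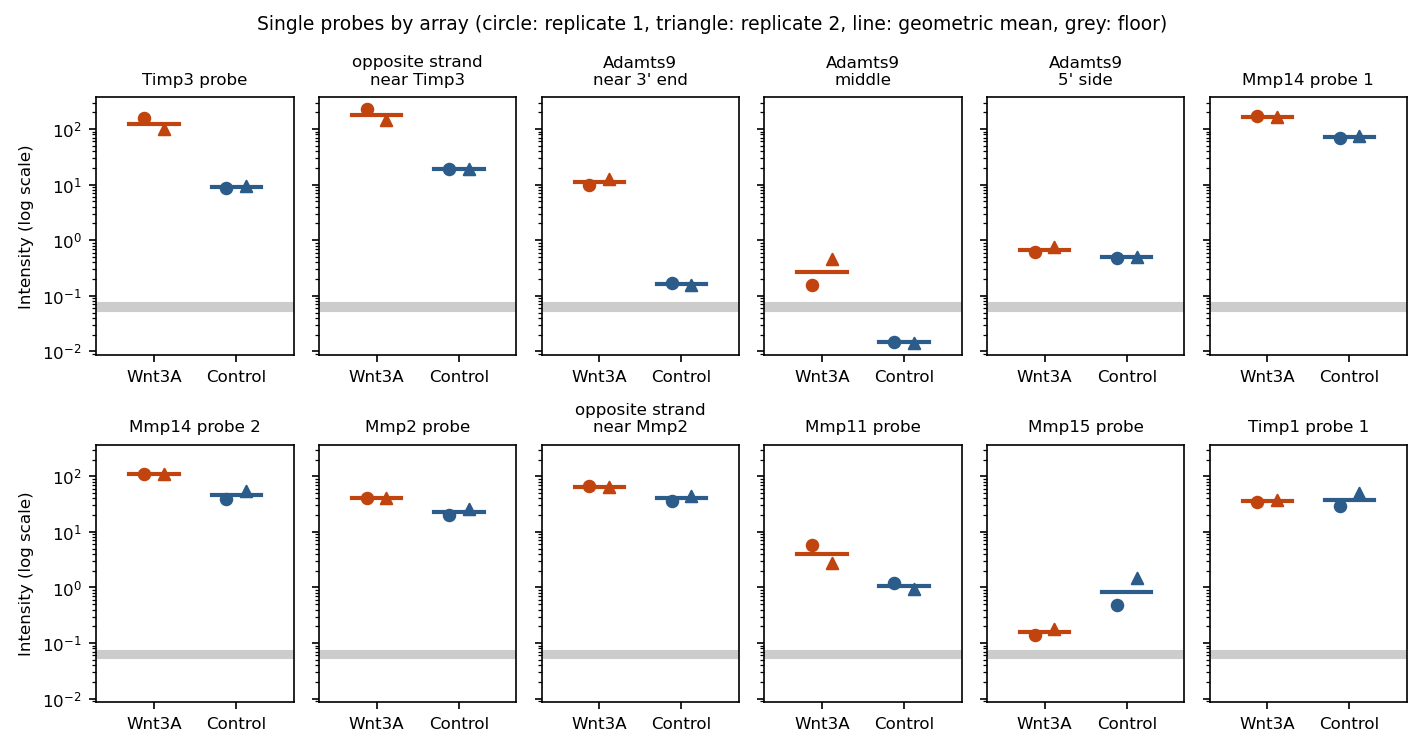
Intensity (log axis) of 12 probes of Timp3, Adamts9, Mmp14, Mmp2, Mmp11, Mmp15 and Timp1 and of the opposite-strand probes near Timp3 and Mmp2, with Wnt3A left of Control, a circle for replicate 1, a triangle for replicate 2, a line at the geometric mean and a grey band over the range of the floors. The Adamts9 probes, ordered by distance from the gene's 3′ end, differ by 6.09 on the log2 scale, by at least 4.03-fold (Control below the floor) and by 0.46 on the log2 scale, and the Timp3 probe and its opposite-strand neighbour by 3.77 and 3.26.

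Of the other proteoglycan-cutting enzymes, the aggrecanase Adamts4 read 2.89 and 1.99 in Wnt3A arrays, against 1.31 and 1.28 in Control arrays. The groups did not overlap, and the difference was 0.90 (SE 0.36, adjusted p 0.397). Adamts5, the main aggrecanase of mouse cartilage, read 8.64 and 5.56 in Wnt3A arrays, against 9.83 and 8.96 in Control arrays (difference -0.43, adjusted p 0.712), and the groups were apart before that scaling but not after it. Adamts8 read 0.277 and 0.345 in Wnt3A arrays, against 0.438 and 0.484 in Control arrays. Its groups did not overlap (difference -0.56, SE 0.31, adjusted p 0.536 in limma). Adamts1, which cuts versican in the ovary, spread widely within both groups, at 3.39 and 6.51 in Wnt3A arrays and 5.49 and 1.68 in Control arrays. Adamts20, which acts in pigment cell development, also overlapped, with a difference of -0.25.

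The procollagen-processing enzymes remove the amino-terminal piece of fibrillar procollagens. Adamts2 read 6.49 and 8.99 in Wnt3A arrays, against 5.84 and 3.19 in Control arrays, a difference of 0.83 (SE 0.47, adjusted p 0.545). Its 4 tested probes were all positive, at 0.74, 0.83, 1.20 and 1.20, and none passed. Adamts14 read 5.01 and 6.58 in Wnt3A arrays, against 5.01 and 4.04 in Control arrays (difference 0.36). A second Adamts14 probe read 3.21 and 4.43 in Wnt3A arrays, against 1.55 and 1.99 in Control arrays, a difference of 1.11 (adjusted p 0.299). Adamts3 had overlapping groups on its brighter probe (difference -0.21).

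Adamts7 and Adamts12 cut the cartilage oligomeric matrix protein, and neither had separate groups. Adamts12 read 5.16 and 6.57 in Wnt3A arrays, against 0.890 and 9.38 in Control arrays, where the 2 replicates lay more than 10-fold apart. Adamts13, the von Willebrand factor protease, read 1.02 and 1.26 in Wnt3A arrays, against 1.57 and 0.524 in Control arrays. Of the enzymes whose substrates are less known, Adamts16 read 0.331 and 0.546 in Wnt3A arrays, against 0.852 and 0.820 in Control arrays. Its groups did not overlap (difference -0.96, SE 0.38, adjusted p 0.395 in limma). Adamts10, which acts in fibrillin fibres, and Adamts18 and Adamts19 had overlapping groups, with differences of -0.62, -0.16 and 0.08. Several probes were tested for 15 members, and in 9 of these members the signs of all probes were alike.

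The genes that activate, oppose or are cut by these proteases were read as a list of 63, of which 60 were tested. Of these, 1 rose (1.67%) and 0 fell, against 0.402% and 0.241% of all genes. At an unadjusted p under 0.05, 8 (13.3%) were higher and 7 (11.7%) lower, against 6.31% and 6.34% of all genes, and the median difference was -0.03, against -0.01 over all genes. The 1 that rose was decorin (Dcn), a small proteoglycan that coats collagen fibrils. It read 9.65 and 19.4 in Wnt3A arrays, against 0.237 and 0.211 in Control arrays, a difference of 5.94 (SE 0.45, adjusted p 0.0348 in limma).

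Among the substrates, Col3a1 read 236 and 239 in Wnt3A arrays, against 7.86 and 19.6 in Control arrays (difference 4.27, adjusted p 0.0721), and Col1a1 read 671 and 736 in Wnt3A arrays, against 158 and 256 in Control arrays (difference 1.81, adjusted p 0.159). Other collagens had the opposite sign. The fibrillar Col2a1 read 165 and 161 in Wnt3A arrays, against 281 and 492 in Control arrays (difference -1.18, adjusted p 0.320). Of the basement membrane collagens, Col4a1 read 7.41 and 9.39 in Wnt3A arrays, against 32.6 and 41.6 in Control arrays (difference -2.13, adjusted p 0.107), and Col4a2 differed by -1.24 (adjusted p 0.224). None of these collagens passed the test. The proteoglycan substrates versican (Vcan) and aggrecan (Acan) had differences of -0.06 and -0.16.

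Pcolce, an enhancer of procollagen cleavage at the carboxy-terminal end, read 47.8 and 53.2 in Wnt3A arrays, against 20.8 and 19.8 in Control arrays (difference 1.33, adjusted p 0.200), and Bmp1, the protease it helps, differed by 1.22 (adjusted p 0.368). The collagen-cutting cathepsin Ctsk read 22.4 and 12.5 in Wnt3A arrays, against 4.09 and 2.73 in Control arrays (difference 2.34, adjusted p 0.171). Thbs1, a matrix protein that takes part in the uptake of Mmp2, read 34.6 and 48.3 in Wnt3A arrays, against 8.46 and 9.71 in Control arrays (difference 2.18, adjusted p 0.108).

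Of the membrane-bound Adam proteases, 3 of 9 had an unadjusted p under 0.05, all 3 lower in Wnt3A arrays, where 6.34% of all genes were lower by that rule, and none passed the adjusted threshold. Adam12 was below the floor in both Wnt3A arrays, at 0.0114 and 0.0248, against 0.480 and 0.537 in Control arrays. It was at least 8.09-fold lower in Wnt3A arrays (at least 4.04-fold with a floor 2 times as high). The adjusted p in limma, 0.0501, is for the values as read and not for this bound. Adam8 read 0.547 and 0.624 in Wnt3A arrays, against 2.25 and 2.27 in Control arrays (difference -1.94, adjusted p 0.110), and Adam19 differed by -2.44 (adjusted p 0.292). The membrane inhibitor Reck (-0.13), the Mmp inducer Bsg (-0.10) and the convertase Furin (0.43), which activates Mmp14, did not pass. All 7 genes of the plasminogen system had an unadjusted p of 0.05 or more.

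**Figure D4:**
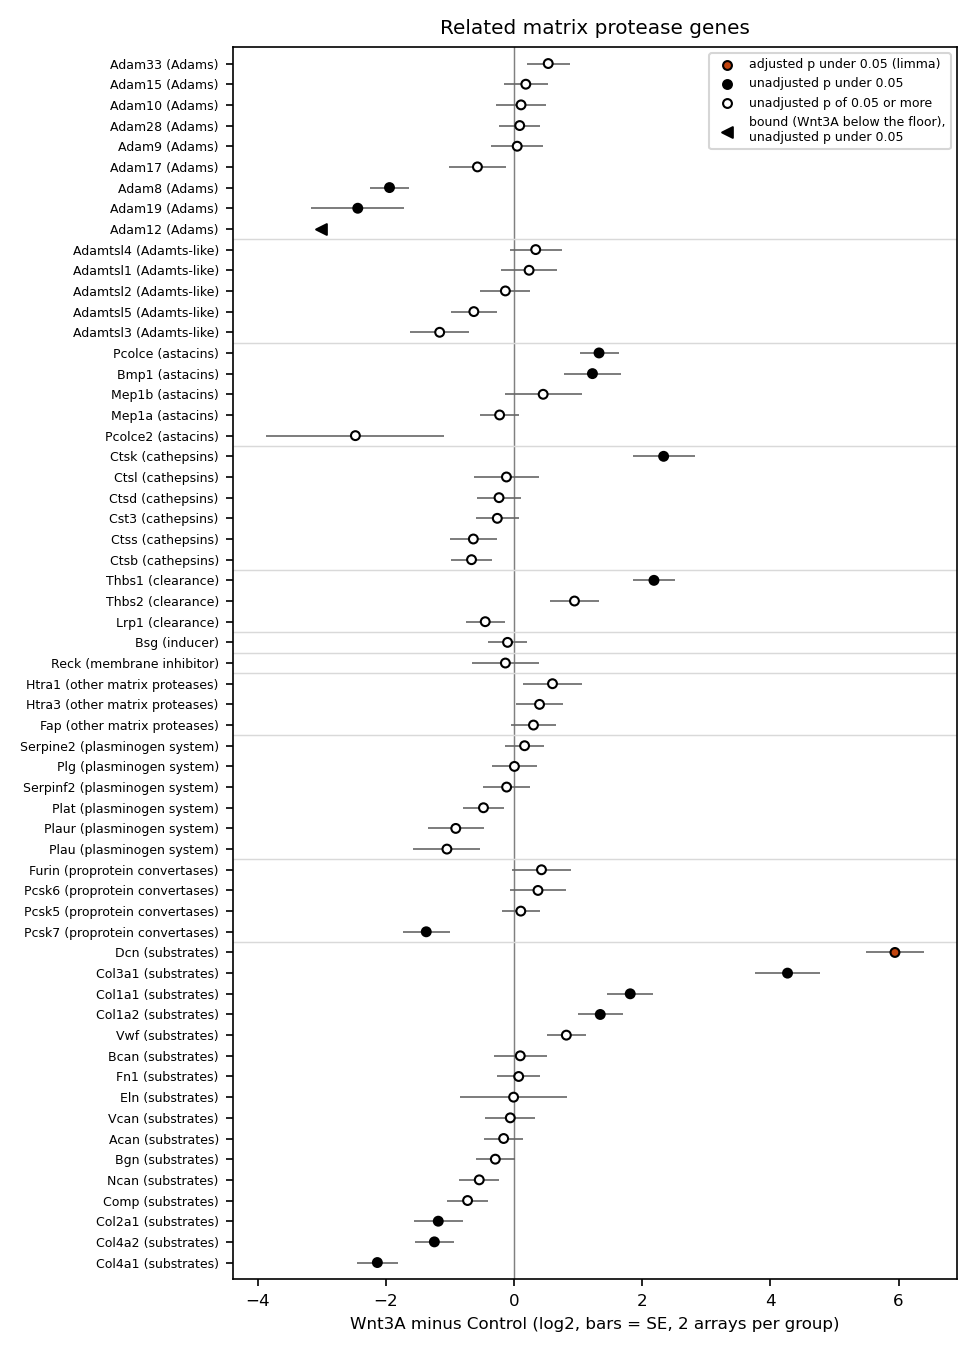
Difference between the groups (log2, Wnt3A minus Control) with its standard error for 59 of the 60 tested genes related to matrix proteolysis, grouped by role, 2 arrays per group. Dcn, at 5.94, is the 1 gene past the threshold, and the triangle of Adam12, which was below the floor in Wnt3A arrays, marks its bound of at least 8.09-fold lower.

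The scanner files gave another picture of the members. Of the 35 members measured in both sources, 17 had the same sign of difference in both and 18 the opposite one, with a Pearson correlation of 0.03 across these genes, which share arrays and are not independent. Timp4, for example, read 22687 and 13682 in the Wnt3A files and 845 and 11033 in the Control files. The median signal was 147 and 95 in the Wnt3A files and 7.32 and 178 in the Control files, so the file of Control replicate 1 was faint. The part of that file in the disagreement was not tested.

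**Figure D5:**
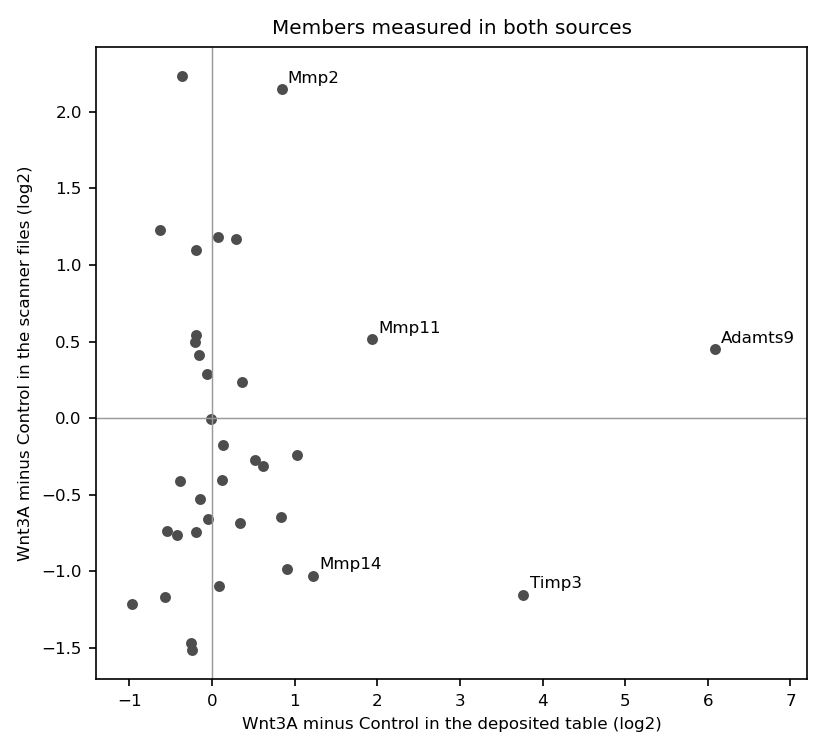
Difference between the groups (log2, Wnt3A minus Control) of the 35 members measured in both sources, in the deposited table on the x axis and in the scanner files on the y axis, 1 point per gene. The points show no common trend, with the same sign in 17 of 35.

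In these bulk samples, fewer cells of a type and less RNA per cell cannot be told apart. The number of arrays limits the precision: an exact test of 2 against 2 arrays cannot give a two-sided p below 0.333, so all calls rest on the spread that limma shares across probes.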

How the data were processed

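Total RNA of 4 OP9 samples was measured on 1 array each. For 43379 spots the deposited table gives an intensity on a linear scale with a median of 1 per array, and how the authors reached that scale is not stated beyond Agilent Feature Extraction, per the submitters' processing notes. The scanner files give the intensity of each spot, with flags of other kinds, from Feature Extraction 10.5.1.1, per the file headers. All 4 scanner files come from 1 slide and 1 scan.

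The table was used for all main values. Spots were joined to probes by their feature number and averaged, giving 41174 probes. Names came from RefSeq through the transcript accession for 24367 probes and through the symbol for 8732, and 8075 kept the name in the file. Values were taken to log2 with no pseudocount, and each array's 75th percentile was subtracted. An array's floor was set at 4.94 times the 1st percentile of its values (the median of the same factor in the scanner files, taken from their detection flags). A probe was kept if 1 group or both had it above the floor on both arrays, and a gene was read from its kept probe with the highest mean. Where no array of a group was above the floor, the fold was computed against the floor. The p-values of such probes were computed from the values as read, including those below the floor.

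The comparison used limma 3.58.1 under R 4.3.3 (lmFit, then eBayes, two-sided, prior df 2.29, residual df 2), Benjamini-Hochberg adjusted over 33709 probes, with a threshold of 0.05. The fit was also run on data simulated from its own fitted variances, which cannot show if those variances or the labels of the columns are right. Probe positions are on mm8 and promoters on GRCm38.p6. Given in full were members past the threshold, with an unadjusted p under 0.05, with a bound, the 5 brightest, those whose groups did not overlap and all Timps. The table as the main source, the members, the lists and the alternatives were chosen with earlier results of these data known. The value of 1 related gene is not reported here.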

Additional observations from a re-analysis of the deposited data

How the results depend on the processing

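The 1 member that rose was joined by others under some settings and lost under others. The number of members that rose was 2 with a floor 2 times as high, 3 with trended and robust variances, 2 with all kept probes of a gene averaged, and 0 in the scanner files with the processed signal or with normexp. It was 0 to 0 when each array in turn was left out, where 0 genes of the whole table passed, with 2281 to 2822 genes at an unadjusted p under 0.05. With the replicate number as a block it was also 0, and 0 genes of the whole table passed, with 2737 at an unadjusted p under 0.05. Same-numbered arrays deviated together only weakly (correlation 0.0124), so the numbers are not shown to pair the arrays. No member fell under any setting.

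The number of related genes that rose was 0 with no filter, 4 with trended and robust variances, 0 with the replicate block, 2 with the mean of probes, 0 in both scanner versions and 0 to 0 with an array left out. The number that fell was 1 with quantile normalization, 1 with a floor 2 times as high, 2 with trended and robust variances and 1 with the mean of probes.

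Adamts9 passed in 7 of 12 other settings of the table (adjusted p 0.0147 to 0.192, 0.0978 with the block). The size of the Adamts9 difference also depended on the setting, and it ran between 3.59 and 6.23 over these 12. Differences of opposite sign were found in the scanner files. With the processed signal, Adamts2 was at -0.65, Adamts4 at -0.99, Mmp14 at -1.03, Mmp23 at -0.31, Mmp25 at -0.27, Timp1 at 0.28, Timp3 at -1.15 and Timp4 at 0.55. With normexp, Adamts2 was at -0.38, Adamts4 at -0.92, Adamts9 at -0.046, Mmp11 at -0.75, Mmp14 at -1.07, Mmp1a at 0.071, Mmp2 at -0.044, Mmp23 at -0.38, Mmp25 at -0.10, Mmp7 at -0.34, Timp1 at 0.78, Timp3 at -0.82 and Timp4 at 1.17. In the table, the mean of probes, one of them below the floor in Control arrays, put Mmp1a at 0.55, and with an array left out Mmp1a ran between -0.20 and 0.18, Timp1 between -0.38 and 0.27, Timp2 between -0.49 and 0.0056 and Timp4 between -0.69 and 0.31. The causes were not tested. The slide could not be fitted as a block, since the scanner files share 1 slide, and the median scaling is the table as deposited. The table has no flags for saturation, and its floor is an estimate.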
